A study of Arabidopsis thaliana with 10 samples.

Results

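The subject here is transcripts that are richer in the unfertilised ovule than in the whole pistil. Their pistil level also stayed within set bounds in the first hours after pollination, which does not mean that it was unchanged. These transcripts were chosen from the array values themselves. A probe set was taken if it named 1 nuclear gene, if its group mean of log2(value + 16) was higher in ovules than in unpollinated pistils by 1.2 or more (2.30-fold), and if each pollinated pistil mean lay within 0.7 (1.62-fold) of the unpollinated mean, in either direction. Pollinated pistils were taken at 0.5, at 3.5 and at 8 hours (HAP, hours after pollination). INO, DELTA-VPE, EC1.5 and AT5G58400 were left out by name, and of these INO met the bounds. The rule gave 165 probe sets for 165 of 13216 named nuclear genes. These genes had 13366 probe sets, of 22745 tested in all. With arrays centred on 2 reference genes, the same bounds gave 102 probe sets, 97 of them among the 165. Those 2 genes, PEX4 and GAPC2, themselves read 0.11 and 0.27 higher in ovules than in unpollinated pistils on this scale. Every array entered the rule, so the ovule difference and the pistil differences of these genes are descriptions and carry no test.

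The study profiled Arabidopsis thaliana, ecotype Columbia, on 10 one-colour arrays with 1 intensity per probe set. There were 5 groups of 2 arrays. The unpollinated pistils came from flowers emasculated the day before, the pistils at 0.5, 3.5 and 8 HAP came from flowers emasculated in the same way and then pollinated, and the ovules were dissected from unpollinated pistils. Per the labels each replicate was a pool from many plants, no genotype other than the ecotype is given, and whole pistils were frozen. A whole pistil contains its ovules, so each pistil value mixes ovule and carpel RNA, and in such bulk samples fewer cells of a type and less RNA per cell cannot be told apart.

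The arrays had medians between 251.5 and 272.2, and 2 arrays per group limit the precision. Replicates correlated at r between 0.9907 in unpollinated pistils and 0.9972 at 0.5 HAP over probe sets (not independent points). Unpollinated replicate 2 stood apart in actin control signal, with a log2 ratio of 3' over 5' probe sets of 2.96 against 1.93 to 2.55 on the other 9 arrays. It read above unpollinated replicate 1 for 116 members (70.3%, against 62.9% of all probe sets), and the part of RNA quality in the results was not tested. Without it the rule gave 180 probe sets, 142 of them shared. The ovule label was checked on marker lists, of which only the named probe sets could be read. Of 6 measured integument and seed coat genes 5 were higher in ovules than in unpollinated pistils and 0 lower by limma with Benjamini-Hochberg adjustment. Both measured egg cell genes were higher, and of 5 central cell genes 2 were higher and 0 lower. Of these 2, AGL62 read 63.3 and 61.7 in ovules against 33.0 and 29.0, under the background level of 136.5 given below. DME, the other, differed by log2 0.27, and AGL80 (-0.05), AGL61 (-0.14) and AGL28 (0.24) were not called. The central cell list thus says little about the label. All 4 measured photosynthesis genes were lower, with summed values of 7691 and 6152 in ovules against 25186 and 24045 in unpollinated pistils. Of 3 pollen and pollen tube genes 0 passed in ovules (summed values 641.8 and 677.7 against 583.8 and 552.4), and all 3 were higher at each time after pollination. Of 7 stigma, style and transmitting tract genes 3 were higher and 3 lower in ovules, with a median log2 difference of -0.25. Their summed values were 5847 and 5956 in ovules against 5490 and 4854 in unpollinated pistils. ARPN, 1 of the 3 higher, read 2438 and 2645 in ovules against 1446 and 1049 and weighs heavily in these sums. These carpel markers thus had no single direction as a list. These counts stand beside 29.6% of all 22745 probe sets called higher and 22.0% called lower in ovules.

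An Arabidopsis ovule consists of a nucellus that holds the embryo sac, of an inner and an outer integument that later form the seed coat, and of the funiculus that joins it to the placenta. Ovules are small beside the carpel walls, style and stigma, so genes used mainly in them are seen diluted when whole pistils are measured. Pollen tubes grow through the stigma, style and transmitting tract before they reach the ovules, and fertilisation follows.

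The members covered a wide range of levels. Per array, the median over members was 938.2 and 993.9 for ovules. It was 306.8 and 347.6 for pistils before pollination, with pairs of 345.7 and 340.4, of 315.7 and 316.3 and of 393.4 and 364.3 at 0.5, 3.5 and 8 HAP. In ovules 81 members had a mean of 1000 or more and 9 a mean of 4000 or more, against 20 with 1000 or more in unpollinated pistils. Background level here means values up to 136.5, below which 95% of the readings of 27 bacterial (Bacillus) control probe sets fell. In ovules 1 member, AT1G14120, had a mean at that level, and in unpollinated pistils 31 did. For 19 members all 8 pistil arrays lay at it, so the size of their difference is set in part by background signal and by the added 16.

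**Figure D1:**
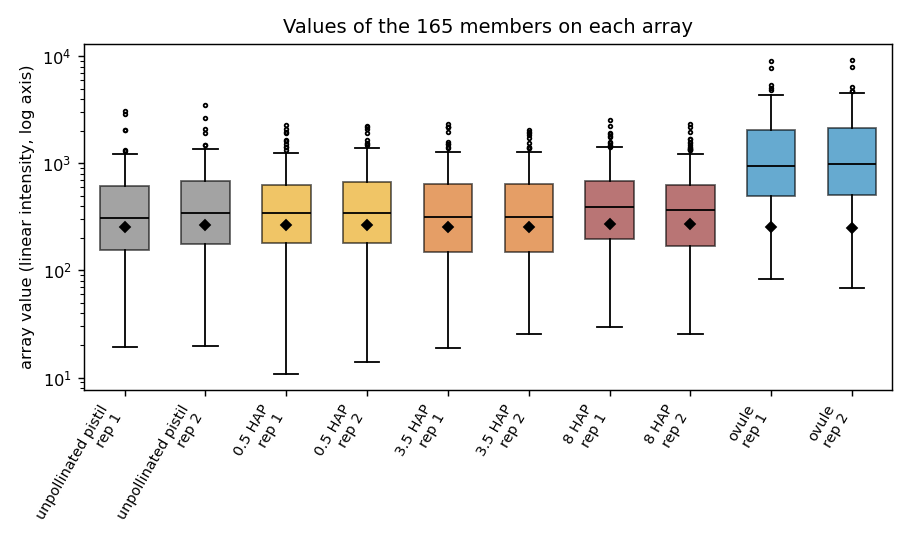
Box plots of the array values (linear intensity, log axis) of the 165 members on each of the 10 arrays. Boxes span the quartiles with the median as a line, whiskers reach 1.5 times the box height, circles are values beyond them, and diamonds are the medians of all probe sets. The ovule medians of 938.2 and 993.9 lie above the 8 pistil medians of 306.8 to 393.4, while the diamonds lie between 251.5 and 272.2.

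The ovule difference of the members ran from 1.201 to 2.69 on the log2(value + 16) scale, with a median of 1.47, against a median of 0.038 over all probe sets. It was 1.5 or more for 74 members and 2 or more for 18. For all 165 both ovule arrays read above all 8 pistil arrays, as 28.4% of all probe sets did, and the rule makes such a separation likely. All 165 were called higher in ovules by limma (background 29.6%), which the rule also fixes. Set against the highest of the 4 pistil group means, the ovule mean was still higher by 0.60 to 2.30 (median 1.27). The 2 ovule arrays differed by over 0.5 on the log2 scale for 8 members and by over 1 for 1 of them, TET9, a tetraspanin, which read 374 and 911 in ovules.

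**Figure D2:**
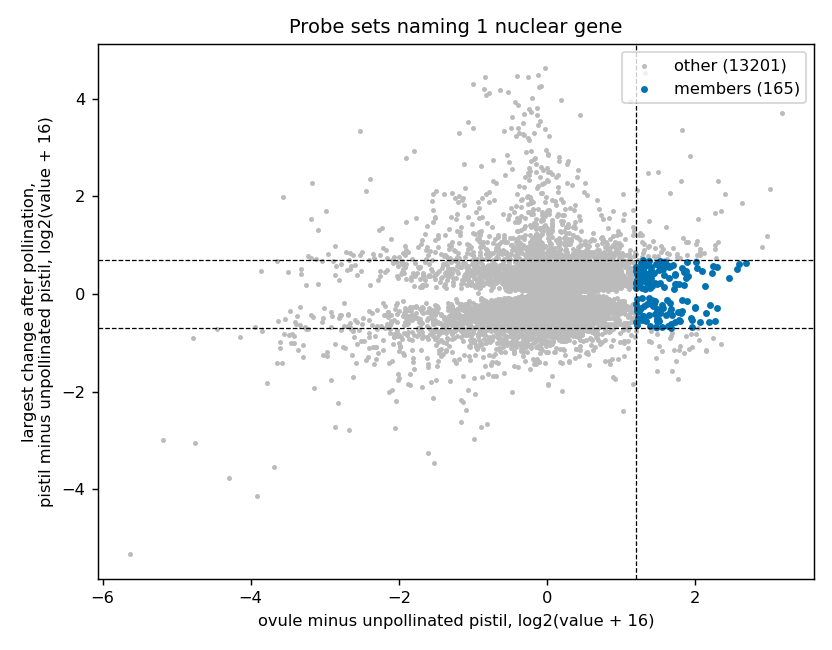
Each point is 1 of 13366 probe sets naming 1 nuclear gene. The x axis is the difference of ovules from unpollinated pistils and the y axis the largest difference of pollinated from unpollinated pistils over the 3 times, both on the log2(value + 16) scale, and dashed lines mark 1.2, 0.7 and -0.7. The 165 members fill the area to the right between the horizontal lines by construction.

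AT3G57250 had the largest ovule difference (2.69, SE 0.16). It read 1293 and 1123 in ovules and 143 and 210.4 before pollination, with pairs of 158 and 154, of 146 and 148 and of 315 and 248 at 0.5, 3.5 and 8 HAP. AT5G46300 came next at 2.60, with 364 and 469 in ovules and 54.8 and 54.8 before pollination, with pairs of 48.1 and 61.5, of 37.5 and 42.5 and of 101 and 84.0 at 0.5, 3.5 and 8 HAP. All 8 of its pistil values were at background level, so 2.60 is no exact size. AT1G56100, of the invertase and pectin methylesterase inhibitor family, read 4319 and 4126 in ovules and 612 and 803 before pollination, with pairs of 629 and 679, of 647 and 609 and of 1030.1 and 979 at 0.5, 3.5 and 8 HAP, a 5.91-fold difference between ovules and unpollinated pistils from levels well above background. AT1G12180, related to small heat shock proteins, read 5110.4 and 4768 in ovules and 855 and 915 before pollination, with pairs of 935 and 959.9, of 854 and 822 and of 1180.2 and 1038 at 0.5, 3.5 and 8 HAP. In these 4 genes the ovule pair stood clear of every pistil array, and the highest pistil values were those at 8 HAP.

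Further down, AT2G41990 read 3539 and 3037 in ovules and 613 and 694 before pollination, with pairs of 602 and 707, of 499 and 574 and of 689 and 608 at 0.5, 3.5 and 8 HAP. AT5G14130, a class III peroxidase, read 1772 and 1679 in ovules and 303 and 378 before pollination, with pairs of 419 and 392, of 365 and 380.5 and of 528 and 485 at 0.5, 3.5 and 8 HAP. AT4G22050, an aspartyl protease, read 4352 and 4735 in ovules and 850.3 and 1011 before pollination, with pairs of 683 and 739, of 636 and 771 and of 697 and 557 at 0.5, 3.5 and 8 HAP. Of these 3, AT5G14130 was highest among pistils at 8 HAP and AT4G22050 in unpollinated pistils, while the 3.5 HAP pair of AT2G41990 lay below its other pistil values. A second aspartyl protease, AT1G69100, read 2051 and 2501 in ovules and 394 and 575 before pollination, with pairs of 502 and 594, of 404 and 469 and of 406 and 408 at 0.5, 3.5 and 8 HAP, and its unpollinated pair, 394 and 575, was wider apart than any pollinated pair. AT4G17480, AT2G22930, AT1G24000 and AT3G60520 complete the 12 largest, with ovule differences of 2.24, 2.23, 2.19 and 2.16. AT2G22930, of the UDP-glycosyltransferase family, read 454 and 560.1 in ovules against 98.4 and 90.9 in unpollinated pistils, where it was at background level.

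**Figure D3:**
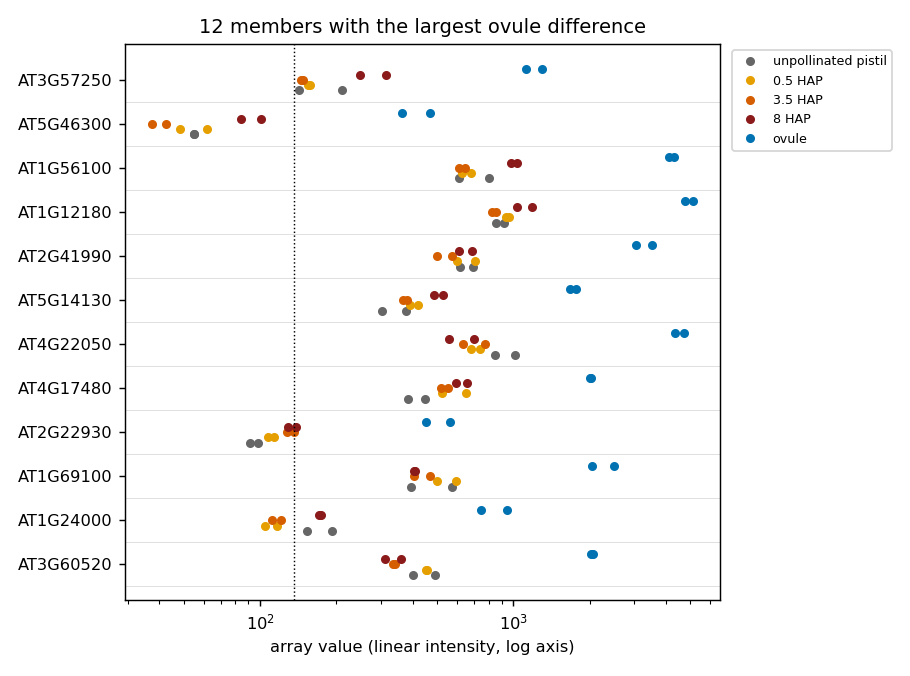
Values of the 12 members with the largest ovule difference (linear intensity, log axis), 2 points for each group of arrays and 1 row per gene. The dotted line is the background level of 136.5. In every row both ovule points lie to the right of all 8 pistil points.

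The brightest members in ovules were a partly different set. AT5G49180, a pectin methylesterase, had the highest ovule mean of all and read 9097 and 9296 in ovules and 3072 and 3526 before pollination, with pairs of 2102 and 2219.8, of 2175 and 1946 and of 2228 and 2198 at 0.5, 3.5 and 8 HAP. AT4G12890, of the lysosomal thiol reductase family, read 7834 and 7875 in ovules and 2904 and 2651 before pollination, with pairs of 1961 and 2072, of 2183 and 2063 and of 1922 and 1969 at 0.5, 3.5 and 8 HAP. AT1G44760 read 5396 and 5140.4 in ovules and 2055 and 2096 before pollination, with pairs of 1903 and 1939, of 2339 and 1731 and of 1429 and 1409 at 0.5, 3.5 and 8 HAP. In AT5G49180 and AT4G12890 both unpollinated values lay above all 6 pollinated ones, and in AT1G44760 both values at 8 HAP lay below the other 6 pistil values. AT1G75710, a C2H2 zinc finger protein, read 4805 and 4550.5 in ovules and 2071 and 1932 before pollination, with pairs of 2269 and 2179, of 2190.5 and 1917 and of 2545 and 2344 at 0.5, 3.5 and 8 HAP. SWEET4, AT1G12180, AT4G22050 and AT1G56100 complete the 8 brightest.

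Of the 165 members 32 carry a symbol and 133 only a locus name. A role could be given for 54, placed in 8 groups made after the values were seen, so the groups are descriptions. The first holds 6 genes of chromatin and small RNA pathways, with ovule differences from 1.201 to 1.88. chr31, also known as CLSY3, is a remodelling factor that guides RNA-directed DNA methylation and is known for small RNA loci of the ovule. It read 3459 and 3043 in ovules and 837 and 903 before pollination, with pairs of 1055 and 1109.5, of 963 and 986 and of 1090.1 and 1106 at 0.5, 3.5 and 8 HAP. CHR40, also known as CLSY4, belongs to the same family. It read 1386 and 1499 in ovules and 434 and 468 before pollination, with pairs of 346 and 302, of 281 and 282 and of 292 and 279 at 0.5, 3.5 and 8 HAP. The pistil values of these relatives ran in different ways: in chr31 all 6 pollinated values lay above both unpollinated ones, and in CHR40 all 6 lay below.

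CHR34, another chromatin remodeller of the SNF2 type, read 625 and 705 in ovules and 234 and 255 before pollination, with pairs of 261 and 272.4, of 237 and 238 and of 293 and 281 at 0.5, 3.5 and 8 HAP. NRPB9A, a subunit shared by RNA polymerases II, IV and V, read 728 and 692 in ovules and 269.8 and 333 before pollination, with pairs of 293 and 288, of 311 and 316 and of 393 and 320.5 at 0.5, 3.5 and 8 HAP, and its ovule difference of 1.201 is just past the bound. HON4, a linker histone-like protein, read 2777 and 2448 in ovules and between 1117 and 1602 on the 8 pistil arrays, and AT4G37210, a histone chaperone, 1761 and 1627 in ovules and between 657 and 1032 on the 8 pistil arrays. In both of these the ovule pair was highest and the unpollinated pair lowest. Of the 38 symbols in a small RNA and DNA methylation list, AGO7 was the only one measured under a name, at a log2 ovule difference of 0.09 (limma adjusted p = 0.462). CLSY3 and CLSY4 stood in it under those names and were recognised as chr31 and CHR40 only after the values were seen.

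The second group holds 9 genes of chromosomes, replication and cell division, with ovule differences from 1.204 to 1.71. HTR12, the centromeric histone H3, read 573 and 627 in ovules and 151 and 195 before pollination, with pairs of 256 and 213, of 201 and 158 and of 265 and 269.7 at 0.5, 3.5 and 8 HAP. AUR3, an Aurora kinase, read 625 and 505 in ovules and 219.6 and 238 before pollination, with pairs of 215 and 229, of 178 and 173 and of 212 and 209.5 at 0.5, 3.5 and 8 HAP. PRL, the MCM7 subunit of the replicative helicase, read 1682 and 1864 in ovules and 728 and 793 before pollination, with pairs of 695 and 722, of 506 and 506 and of 1058 and 909 at 0.5, 3.5 and 8 HAP. For all 3 the ovule pair was the highest, and the lowest pistil values of AUR3 and PRL were the pairs at 3.5 HAP, apart from those at 0.5 and 8 HAP. 3xHMG-box1, a mitotic chromosome protein, read 544 and 489 in ovules and 209 and 207 before pollination, with pairs of 306 and 286, of 179.8 and 151 and of 345 and 251 at 0.5, 3.5 and 8 HAP, again lowest at 3.5 HAP. Haspin, a histone H3 kinase of mitosis, read 395 and 342 in ovules and between 128 and 179 on the 8 pistil arrays, and AT3G10180, a kinesin, 362 and 295 in ovules and between 114 and 195 on the 8 pistil arrays.

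TRM22, TRM24 and TRM28 are named for recruiting motifs of TON1, a protein of cortical microtubule arrays. TRM24 read 823 and 829.7 in ovules and 253 and 365 before pollination, with pairs of 200.2 and 178, of 199 and 174 and of 422 and 386 at 0.5, 3.5 and 8 HAP. Its 8 HAP pair lay above all other pistil values. TRM22 read 899.6 and 986 in ovules and between 264 and 398 on the 8 pistil arrays. TRM28 read 202 and 240.3 in ovules and between 61.6 and 103 on the 8 pistil arrays, all of the latter at background level. Of the 9 genes in this group 7 had their lowest pollinated mean at 3.5 HAP. Among all members 85 of 165 did (51.5%), and among all probe sets 9467 of 22745 (41.6%). These counts use the deposited scaling. With arrays centred on 2 reference genes the members' median step from 0.5 to 3.5 HAP moved from -0.073 to 0.0065, so a low at 3.5 HAP depends in part on the scaling. In a cell cycle and replication list of 41 symbols 5 genes were measured under a name and all 5 were higher in ovules. The rule fixed this for the 3 that are members. Of the other 2, AUR1 read 876 and 759 in ovules against 402 and 480 in unpollinated pistils (log2 0.87, limma adjusted p = 5.21e-05), and AUR2 read 206 and 189 against 148 and 149 (log2 0.38, limma adjusted p = 0.00369). At 8 HAP 4 of the 5 were higher than in unpollinated pistils and 0 lower, and at 3.5 HAP 0 were higher and 2 lower. Among all probe sets 29.6% were called higher in ovules, 19.7% higher at 8 HAP and 17.0% lower at 3.5 HAP. The rule used these contrasts to choose the 3 members, so nothing is read from the counts of the 5 genes.

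**Figure D4:**
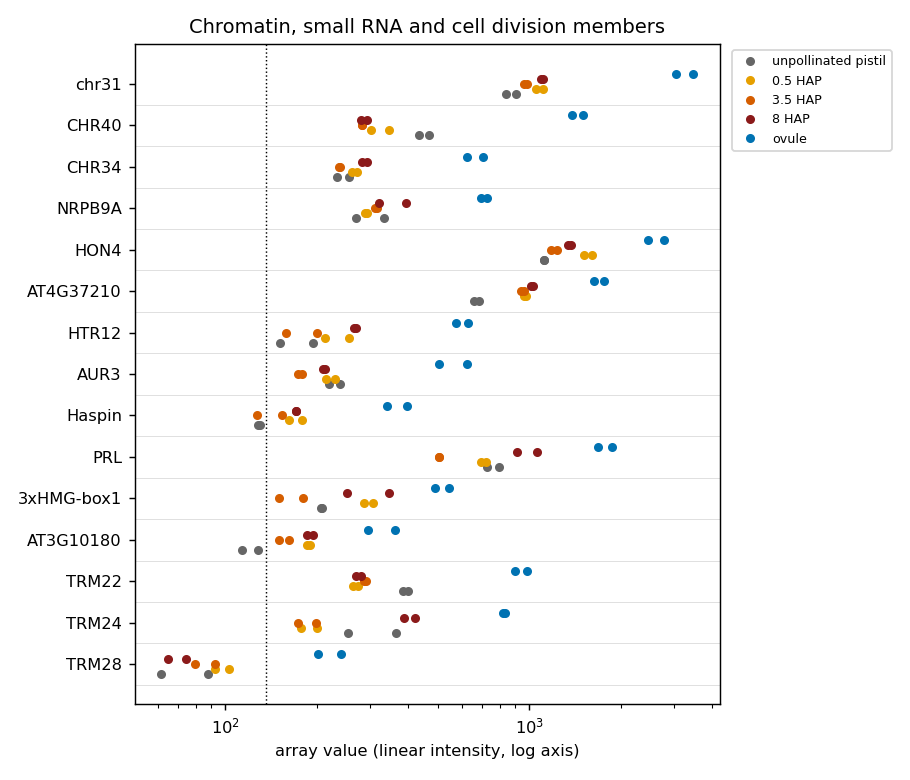
Values of the 15 members with roles in chromatin, small RNA pathways and cell division (linear intensity, log axis), 2 points for each group of arrays. The dotted line is the background level of 136.5. Both ovule points lie to the right of all pistil points in every row, and the 3.5 HAP points of PRL, AUR3 and 3xHMG-box1 lie to the left of the other pistil points.

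Receptors and secreted peptides form the third group, 11 genes with ovule differences from 1.349 to 2.14. EMS1, a leucine-rich repeat receptor kinase known for cell fate in the anther, read 3552 and 3345 in ovules and 733 and 961 before pollination, with pairs of 1007 and 1069, of 1032 and 999 and of 1333 and 1326 at 0.5, 3.5 and 8 HAP. Its 8 HAP pair lay above the other pistil values. In the list of nucellus and early ovule genes it was 1 of 2 measured, the other being SPL, a regulator of ovule patterning (log2 ovule difference -0.15, limma adjusted p = 0.326). AT3G56370, AT1G75640, AT1G10850 and AT2G23300 are also leucine-rich repeat receptor-like proteins. AT3G56370 read 2507 and 2599.8 in ovules and between 873 and 1453 on the 8 pistil arrays, and AT1G75640 read 579 and 498 in ovules and between 136 and 244 on the 8 pistil arrays. For AT1G10850 the values were 1106 and 1137 in ovules and between 337 and 632 on the 8 pistil arrays. For AT2G23300 they were 828 and 744 in ovules and between 208 and 400.2 on the 8 pistil arrays.

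Among the secreted peptides, RALFL28, of the rapid alkalinisation factor family, read 1600.2 and 1693 in ovules and 375 and 425 before pollination, with pairs of 329.9 and 321, of 305 and 345 and of 444 and 456 at 0.5, 3.5 and 8 HAP. LCR80, a low-molecular-weight cysteine-rich peptide, read 2037 and 2496 in ovules and 451 and 582 before pollination, with pairs of 700.3 and 742, of 583 and 638 and of 468 and 463 at 0.5, 3.5 and 8 HAP. The order of the pistil groups differed between them, with 8 HAP highest for RALFL28 and 0.5 HAP highest for LCR80. The defensin-like AT3G24510 read 3061 and 2907 in ovules and between 668 and 1180.0 on the 8 pistil arrays. AT3G04540, also defensin-like, read 2257 and 2244 in ovules and between 524 and 775 on the 8 pistil arrays. AT2G06090, of the self-incompatibility S1 family, read 1673 and 2154 in ovules and 399 and 437 before pollination, with pairs of 473 and 471, of 445 and 451 and of 408 and 378 at 0.5, 3.5 and 8 HAP, with all 8 pistil values between 378 and 473. CLE27, a signalling peptide of the CLAVATA3 family, read 326 and 291 in ovules and between 104 and 137 on the 8 pistil arrays.

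Among 5 transporters SWEET4 and SWEET7 are sugar transporters. SWEET4 read 4156 and 4463 in ovules and 1299.7 and 992 before pollination, with pairs of 1423 and 1475, of 1402 and 1550.5 and of 1237 and 1173 at 0.5, 3.5 and 8 HAP. SWEET7 read 747 and 993 in ovules and 277 and 289.9 before pollination, with pairs of 172 and 170.5, of 208 and 183 and of 283 and 268 at 0.5, 3.5 and 8 HAP. The early pollinated pairs of SWEET7 lay below its unpollinated pair and the 8 HAP pair overlapped it, whereas the unpollinated pair of SWEET4 was wide. ZIP6, of a metal transporter family, read 2073 and 1845 in ovules and between 554 and 860.3 on the 8 pistil arrays. AT3G25260, the peptide and nitrate family member NPF4.1, read 399 and 540.3 in ovules and between 109 and 175 on the 8 pistil arrays. AT1G34580, a monosaccharide transporter, read 408 and 391 in ovules and between 146 and 221 on the 8 pistil arrays.

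The cell wall and carbohydrate group, with AT5G49180, AT1G56100, AT5G14130 and AT2G22930 described above, also holds GH9B13, an endoglucanase, at 3696 and 3519 in ovules and between 1329.8 and 1875 on the 8 pistil arrays. TBL38, of a family of wall polysaccharide acetyltransferases, read 1651 and 1895 in ovules and between 421 and 645 on the 8 pistil arrays. Its relative TBL43 read 305 and 294 in ovules and between 71.96 and 115 on the 8 pistil arrays. All pollinated values of both lay below their unpollinated values, but every pistil value of TBL43 was at background level. DD46, named for a gene lowered in ovules that lack an embryo sac, read 376 and 736 in ovules and 230.1 and 174 before pollination, with pairs of 210.1 and 215, of 195 and 194 and of 224 and 206 at 0.5, 3.5 and 8 HAP. Its 2 ovule values lay far apart, so its level in ovules is uncertain. Further proteases were among the members. AT1G79720, an aspartyl protease, read 2279 and 2680.4 in ovules and between 856 and 1138 on the 8 pistil arrays. AT5G58830, a subtilase, read 573 and 659 in ovules and between 155 and 212 on the 8 pistil arrays. The papain-type cysteine protease AT3G43960 and the serine carboxypeptidase-like scpl20 were brighter, with 3490.2 and 3659.9 in ovules and between 1136 and 1804 on the 8 pistil arrays for the former, and 2843 and 3014 in ovules and between 776 and 1248 on the 8 pistil arrays for the latter.

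B3 DNA-binding proteins were represented by AT5G60140 and AT5G18090. The first read 2687 and 3168 in ovules and between 938 and 1373 on the 8 pistil arrays. The second read 1323 and 1865 in ovules and between 337 and 578 on the 8 pistil arrays. A list of 23 B3 and REM factors had 8 measured genes, 0 of them members, of which 3 were called higher and 1 lower in ovules, beside 29.6% and 22.0% of all probe sets. VDD, a B3 factor of embryo sac cells, was 1 of the 3 (log2 1.81, limma adjusted p = 1.97e-06) and lay above the upper bound at 8 HAP, at 0.74. In the metabolic group ASPGA1, an asparaginase, read 2846 and 2325 in ovules and 977 and 1029 before pollination, with pairs of 1509.6 and 1544, of 1531 and 1425 and of 1553 and 1393 at 0.5, 3.5 and 8 HAP. TRI, a tropinone reductase-like enzyme, read 665 and 735 in ovules and 156 and 180.3 before pollination, with pairs of 134 and 133, of 124 and 127 and of 95.4 and 101 at 0.5, 3.5 and 8 HAP. Every pollinated value of ASPGA1 exceeded its unpollinated values and every one of TRI lay below them. All pollinated values of TRI were at background level, so the size of its fall is uncertain. AT1G02190, a relative of the wax synthesis protein CER1, read 3134 and 3542 in ovules and 868 and 1231 before pollination, with pairs of 588 and 677, of 664 and 648 and of 854 and 849 at 0.5, 3.5 and 8 HAP. GSTU26, a glutathione transferase, read 1217 and 1232 in ovules and between 378 and 504 on the 8 pistil arrays, and RTE1, a regulator of an ethylene receptor, 3206 and 3156 in ovules and between 1067 and 1424 on the 8 pistil arrays.

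Over the time course the members stayed within the bounds by choice, and the spread inside them was as follows. The median difference from unpollinated pistils was 0.072 at 0.5 HAP, -0.044 at 3.5 HAP and 0.15 at 8 HAP, against -0.020, -0.066 and -0.012 over all probe sets. The range over the 4 pistil group means had a median of 0.46 (quartiles 0.32 and 0.61). Over all probe sets it was 0.36 (quartiles 0.23 and 0.57), so by this measure the members were no flatter than probe sets in general. Against unpollinated pistils limma called 28 members higher and 26 lower at 0.5 HAP (backgrounds 15.5% and 14.7%), 23 higher and 41 lower at 3.5 HAP (12.9% and 17.0%), and 58 higher and 23 lower at 8 HAP (19.7% and 18.8%). Nothing is read from these counts, since the rule used these contrasts. With arrays centred on 2 reference genes the split at 0.5 HAP was 17 higher and 31 lower. The split over all probe sets moved alike. Of member calls 51.9% were higher before centring and 35.4% after it, against 51.4% and 35.7% of all calls. The totals were 54 at 0.5 HAP, 64 at 3.5 HAP and 81 at 8 HAP. Leaving out either pollinated array of the comparison lowered each total, as it lowered the calls over all probe sets. At none of the 3 times were 49 members called (29.7%, against 45.2% of all probe sets). The 3 comparisons share their unpollinated arrays.

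The flattest members above background level were AT5G49100, AT1G79060, AT1G16520, AT1G02110, AT5G14410 and AT3G04980, whose pistil group means spanned 0.076 to 0.13 on the log2 scale. AT5G49100 read 2763 and 2655 in ovules and 935 and 1141 before pollination, with pairs of 980.3 and 989.9, of 935 and 1026 and of 1032 and 984 at 0.5, 3.5 and 8 HAP. AT1G16520 read 938 and 911 in ovules and 425 and 359.9 before pollination, with pairs of 406 and 446, of 419.9 and 409 and of 425 and 424 at 0.5, 3.5 and 8 HAP. AT3G04980 read 1246 and 1102 in ovules and 397 and 462 before pollination, with pairs of 389 and 390.3, of 402 and 377 and of 439.7 and 396 at 0.5, 3.5 and 8 HAP. In these 3 genes no pistil pair stood clear of all the other pistil values, and the ovule pair lay above all of them. AT1G02110 read 247 and 377 in unpollinated pistils, so its flatness rests on a wide pair. In all, 25 members stayed within 0.2 at all 3 times, 53 lay above the unpollinated mean at all 3 times and 39 below it. The differences at the 3 times share the unpollinated arrays, which also entered the ovule bound of the rule, so nothing is read from these counts.

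At 8 HAP the largest differences above unpollinated pistils were those of AT5G08350 (0.67), AT5G02540 (0.67), AT1G10850 (0.66) and EMS1 (0.65), and the largest below were TRI (-0.69), CHR40 (-0.63), AT5G25950 (-0.58) and AT5G49180 (-0.57). Both 8 HAP values of TRI were at background level. AT5G08350 read 920.1 and 496 in ovules and 209.8 and 240.3 before pollination, with pairs of 221 and 250.2, of 283 and 288 and of 417 and 322 at 0.5, 3.5 and 8 HAP, with ovule arrays that differ widely. AT5G02540 read 1534 and 1678 in ovules and 586 and 623 before pollination, with pairs of 615 and 629, of 709.8 and 657 and of 1025 and 918 at 0.5, 3.5 and 8 HAP. AT5G25950 read 284 and 252 in ovules and 50.0 and 53.1 before pollination, with pairs of 80.0 and 87.5, of 64.6 and 72.3 and of 29.9 and 28.5 at 0.5, 3.5 and 8 HAP. It spanned 1.14 over the 4 pistil groups, the widest range among the members, with all 8 pistil values at background level.

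Steps between pollinated times do not involve the unpollinated arrays, but the rule bounds them to 1.4 in either direction, so they are descriptions too. From 0.5 to 3.5 HAP limma called 4 members higher and 19 lower, beside backgrounds of 5.19% and 9.0%. The split was 9 and 17 after quantile normalization and 9 and 8 after centring on the reference genes. Of the calls over all probe sets 36.6% were higher as deposited, 48.2% after quantile normalization and 58.6% after centring. Among member calls these shares were 17.4%, 34.6% and 52.9%. Leaving out any 1 of the 4 arrays compared lowered the total of 23, as it lowered the calls over all probe sets. From 3.5 to 8 HAP it called 55 higher and 12 lower, beside 18.9% and 12.4%. That total of 67 was also lower without any 1 of the 4 arrays compared, as were the calls over all probe sets. The median step over the members was -0.073 and then 0.15, against -0.032 and 0.051 over all probe sets.

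**Figure D5:**
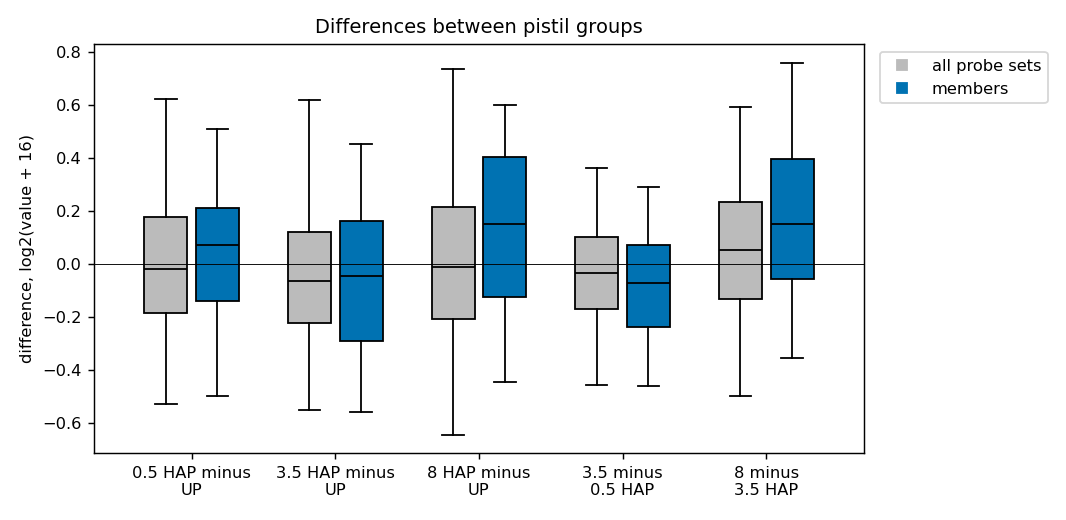
Box plots of differences between pistil groups on the log2(value + 16) scale for all 22745 probe sets (grey) and the 165 members (blue). Boxes span the quartiles with the median as a line and whiskers the 5th to 95th percentile. The members' median lies at 0.15 both for 8 HAP minus unpollinated pistils and for the step from 3.5 to 8 HAP, and the first 3 differences of the members were limited to 0.7 in size by the rule.

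The largest steps down from 0.5 to 3.5 HAP were those of AT2G30990 (-0.86), 3xHMG-box1 (-0.79), AT5G64870 (-0.59) and AT2G24970 (-0.56). AT2G30990 read 753 and 793 in ovules and 302 and 308 before pollination, with pairs of 397 and 424, of 222 and 216 and of 256 and 268 at 0.5, 3.5 and 8 HAP. Its 0.5 HAP pair lay above and its 3.5 HAP pair below the unpollinated pair. The largest steps up over this interval were those of AT5G02550 (0.59), AT3G02670 (0.48), AT2G27130 (0.44) and AT1G14120 (0.42, at background level in every pistil array). AT5G02550 read 3164 and 2352 in ovules and 706 and 782 before pollination, with pairs of 657 and 693, of 1014 and 1031 and of 598 and 552 at 0.5, 3.5 and 8 HAP, with its 3.5 HAP pair above all other pistil values. From 3.5 to 8 HAP the largest steps up were TRM24 (1.05), AT5G46300 (0.95), PRL (0.93) and AT4G09090 (0.89), and the largest down were AT4G28240 (-1.05), AT5G25950 (-0.90), AT5G02550 (-0.81) and AT5G17760 (-0.72). AT4G28240 read 3461 and 2404 in ovules and 1072 and 1254 before pollination, with pairs of 1425 and 1403, of 1951 and 1834 and of 973 and 843 at 0.5, 3.5 and 8 HAP, so its 3.5 HAP pair was the highest of the pistil pairs and its 8 HAP pair the lowest.

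Genes on either side of the ovule bound had nearly the same values, while the gaps at the pistil bounds were wider in places. At the ovule bound AT4G30400, NRPB9A and AT1G74490 entered at 1.201, 1.201 and 1.202, and AT1G17860, AT5G57410 and AT3G54390 missed it at 1.199, 1.199 and 1.198. At 0.5 HAP AT1G31530, AT1G19330 and ASPGA1 were nearest below 0.7 (0.65, 0.65 and 0.60). AT4G31020, AT5G27920 and AT3G10780 were out at 0.704, 0.73 and 0.81. On the low side AT1G02190, AT3G13630 and SWEET7 stayed in (-0.70, -0.69 and -0.68), and AT2G17710 (-0.76) and AT2G30810 (-0.97) were out. At 3.5 HAP AT4G28240 (0.70), ASPGA1 (0.55) and AT4G32870 (0.54) were in and IQD22 (0.80) out, and AT5G49180 (-0.67), TRM24 (-0.66) and CHR40 (-0.65) were in and AT1G63950 (-0.83) out. At 8 HAP AT5G19290 (0.701), AT2G35310 (0.701) and GH9A3 (0.72) were just above the bound, and AT3G57850 (-0.706) and AT5G20110 (-0.72) just below.

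Of 265 probe sets that named 1 nuclear gene and passed the ovule bound, 166 lay within the bounds at all 3 times (62.6%), which with INO left out are the members. Over all probe sets naming 1 nuclear gene 88.2% lay within them. Of the 265, 68 went above the upper bound at some time, 33 went below the lower bound, and 2 of these did both. Above the upper bound were 33 at 0.5 HAP, 33 at 3.5 HAP and 49 at 8 HAP, and below the lower bound 11, 12 and 22. A further 128 probe sets with no gene name in the annotation used and 8 naming several genes met the same bounds and are not members.

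For 3 member genes a second probe set was present, which the rule screened like any other and which fell short of the ovule bound, so its values are a description. That of AT1G22330 read 310.1 and 305 in ovules and 151 and 103 before pollination, with pairs of 143 and 118, of 109 and 117 and of 145 and 150.5 at 0.5, 3.5 and 8 HAP, a log2 ovule difference of 1.197 against 1.22 for the member. That of chr31 read 131 and 123 in ovules and 47.3 and 54.1 before pollination, with pairs of 78.6 and 73.9, of 51.9 and 54.3 and of 78.6 and 68.9 at 0.5, 3.5 and 8 HAP, far dimmer than the member probe set and at background level on all 10 arrays, so no size is given. For AT3G10180 it read 86.6 and 67.6 in ovules and 63.3 and 71.9 before pollination, with pairs of 73.2 and 69.7, of 58.9 and 64.9 and of 64.1 and 78.1 at 0.5, 3.5 and 8 HAP, where the groups overlap and all values are at background level. Of the 3, only the second probe set of AT1G22330 read above background level in ovules.

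The members lay on all 5 chromosomes, with 53 on chromosome 1, 19 on 2, 32 on 3, 22 on 4 and 39 on 5. These are 32.1%, 11.5%, 19.4%, 13.3% and 23.6% of members, against 25.8%, 16.5%, 20.5%, 14.7% and 22.5% of all probe sets naming 1 nuclear gene. By the gene table, 163 are protein-coding and 2, AT3G31970 and AT4G10580, are pseudogenes. Among protein-coding genes 3 pairs of members are direct neighbours, AT1G24000 with AT1G24010, AT3G25290 with AT3G25400 and AT5G02540 with AT5G02550. Those of the first pair belong to 1 family, related to major latex proteins, and signal shared between their probe sets was not tested. The other 141 measured neighbours of members had a median log2 ovule difference of 0.061, against 0.043 over all 13216 named nuclear genes, and 1 of them passed 1.2. This was AT1G71691 (1.96), whose gene overlaps that of the member AT1G71690, so the 2 signals may not be separate. AT3G31970, AT4G10580 and AT2G43200 rest on probe sets whose type marks possible cross-hybridisation.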

How the data were processed

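The data were 10 one-colour arrays, 2 for each of 5 groups. The authors deposited linear intensity values, 1 per probe set, already summarised from their scans. MAS5 appears in the submitters' processing notes without its version or use. The array medians are close, so some scaling before deposit is likely but its form is not given in the sources used here. Amplification ran through 2 rounds of in vitro transcription, per the labels' protocols, which favours 3' ends.

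Of 22810 probe sets, 64 were controls and 1 had no value, leaving 22745. Of these 13512 named 1 gene in the platform annotation, 503 several and 8730 none, and 13435 matched the RefSeq gene table, which was used for names, chromosomes and neighbours only. No columns of values were left unused. Values were taken as log2(value + 16) without further normalization. All 5 groups entered 1 limma model (version 3.58.1, R 4.3.3, moderated by eBayes with an intensity trend), and p-values were Benjamini-Hochberg adjusted over all probe sets, with calls at 0.05. The model had 5 residual degrees of freedom. It was tested on simulated data. Fold changes on this scale understate those of dim genes. The labels call replicates separate pools, and p-values measure the spread between them.

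The members and the gene lists were chosen with earlier results of these data known. Genes were named by 9 rules. They cover the 12 largest ovule differences, the 8 brightest members in ovules, the 6 flattest above background, the 4 highest and the 4 lowest at 8 HAP, the 3 nearest to each bound on either side, members in a gene list, families of 3 or more members, genes with a second probe set, and the 4 largest steps up or down between times. Members named for their roles, and the remaining genes named beside these, were chosen after their values were seen. Alternatives were quantile normalization, centring on 2 reference genes (PEX4 and GAPC2), other pseudocounts (1 and 64), leaving out the dimmest 40%, fitting only the groups compared, the replicate number as a block, and leaving out each array. Sequence features of the members were not analysed here.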

Additional observations from a re-analysis of the deposited data

Results flagged for a closer look

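Steps between pollinated times were marked because a test of the difference between these groups passed for some members, although the rule held each time near the unpollinated level. From 0.5 to 3.5 HAP 23 members passed the limma threshold, and the largest step was that of AT2G30990, at -0.86 on the log2 scale. From 3.5 to 8 HAP 67 members passed, and the largest step was that of TRM24, at 1.05. For the first step 2.42% of members were called higher and 11.5% lower, against 5.19% and 9.0% of all probe sets. The total is thus near the background. It fell without any 1 of the 4 arrays compared, as did the calls over all probe sets. For the second step 33.3% of members were called higher and 7.27% lower, against 18.9% and 12.4%. This total too fell without any 1 of the 4 arrays compared, as did the calls over all probe sets. The rule bounds both steps, so nothing more is read from them.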

How the results depend on the processing

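The rule gave 102 probe sets with arrays centred on the reference genes, against 165 (97 shared), and 128 to 184 with quantile normalization, the other pseudocounts or the filter on dim probe sets (112 to 153 shared). Centring moved the median ovule difference of all probe sets from 0.038 to -0.15. Of the reference genes GAPC2 was itself called higher in ovules (log2 0.27, limma adjusted p = 0.00234), so centring lowered every ovule difference. Leaving out 1 array gave 160 to 188 probe sets by the rule. It gave 165 ovule calls each time, 26 to 59 calls at 0.5 HAP, 29 to 68 at 3.5 HAP, 50 to 83 at 8 HAP, 3 to 32 for the step from 0.5 to 3.5 HAP and 29 to 72 for the step from 3.5 to 8 HAP. Fitting only the 2 groups compared gave 39 calls at 3.5 HAP (64 in the full model) and 55 for the step from 0.5 to 3.5 HAP (23 in the full model), and the cause was not tested. With the replicate number as a block the counts were 165 in ovules, 49, 61 and 75 at 0.5, 3.5 and 8 HAP, and 20 and 62 for the steps. The differences between replicates 1 and 2 correlated at -0.32 to 0.11 over 10 pairs of groups, 7 of them negative. With 1 such difference per group this cannot show whether same-numbered arrays shared a batch. Of 61 named members, all kept the direction and call of their ovule difference under the alternatives run, which the rule makes likely. With 2 arrays per group and 31 members at background level before pollination, small differences of dim genes are not resolved.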
